A study of Saccharomyces cerevisiae with 6 samples.

Results

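The MRPL genes of budding yeast encode proteins of the large subunit of the mitochondrial ribosome. Members were all S. cerevisiae genes on the array whose symbol is MRPL followed by a number, which gave 34 of the 5449 genes tested. Each of the 34 was read by 1 probe set, and 0 of the 34 sets were of the kinds marked as able to cross-hybridize. The study grew S. cerevisiae VTT C-10883 without oxygen in chemostats, in which medium flows in and culture flows out at a fixed rate. Arrays read 3 biological replicates that received no inhibitors and 3 replicates after a step to medium holding 5-hydroxymethylfurfural (HMF) and furfural, aldehydes that form when plant sugars break down. The strain and the lack of oxygen were thus common to both groups. For the dose, the sampling time and the dilution rate no value was at hand, and the labels do not say whether cultures of the 2 groups share a vessel.

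The mitochondrial ribosome translates the few genes that remain in mitochondrial DNA, most of which encode core subunits of the respiratory chain and the ATP synthase. Nearly all of its proteins are encoded in the nucleus, made in the cytosol and imported. In the large subunit they surround an RNA that forms peptide bonds, and the new chain leaves through a tunnel that opens at the inner membrane. Many of these proteins descend from those of bacterial ribosomes, while others were added in the mitochondrial lineage. Yeast without oxygen lives by fermentation.

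With both aldehydes, most MRPL genes were not called, and those called changed by small amounts in both directions. In limma's moderated test, adjusted by Benjamini-Hochberg over all genes tested and read at an adjusted p under 0.05, 9 of the 34 fell, 3 rose and 22 were not called. Over all genes tested 42.2% were called, against 35.3% of the members, so the share called was near the background. By direction, 22.3% of all genes were called lower and 19.9% higher, against 26.5% and 8.82% of the members. The largest fall was that of MRPL36, by 0.27 on the log2 scale, and the largest rise was that of MRPL10, by 0.19. As folds, the 12 called changes lay between 1.10 and 1.21.

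**Figure D1:**
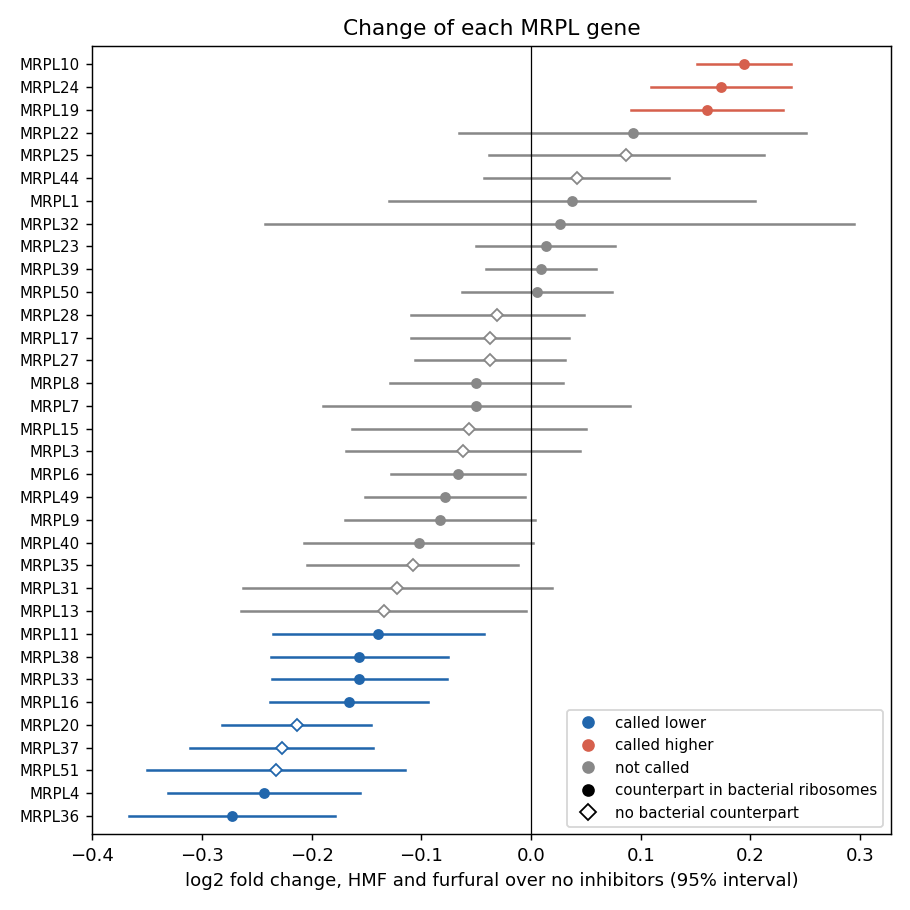
Log2 fold change of each of the 34 MRPL genes, inhibitors over no inhibitors, with limma's 95% interval (3 arrays against 3). Blue marks genes called lower, red genes called higher and grey genes not called. Filled circles are proteins with a bacterial counterpart and open diamonds those with none. The points run from -0.27 for MRPL36 to 0.19 for MRPL10, and most intervals of the grey genes cross 0.

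The signals were far from the floor of the array. Every value of a member lay between 7.06 and 9.56 on the log2 scale. The array also carries fission yeast probe sets, an organism not grown in these cultures, and these sets give the background. The 25 such sets named for fission yeast mrpl genes had mean signals of 2.21 to 2.22. All 34 members were above the background, set at the 95th percentile of all fission yeast sets (2.22), on all 6 arrays. So were 5346 of the 5449 genes tested. The within-group SD of the members had a median of 0.039, against 0.053 over all genes, and the precision is limited by having 3 arrays a group. The arrays measure RNA relative to the other RNA of the same culture, so a different amount of RNA per cell or a different number of cells cannot be seen here.

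Among the 34 differences, 23 were negative and 11 positive. Their median was -0.06, beside a median of -0.01 over all genes tested. The median size of the difference, without its sign, was 0.09 for the members and 0.12 for all genes. The SD over genes of the differences was 0.12 for the members and 0.28 for all genes. Of the members, 1 reached a fold of 1.2 (MRPL36), or 2.94%, where 21.5% of all genes reached it. In all, 1100 genes changed by more than MRPL36 did, in either direction.

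Averaged over the 34 members, the signal was 8.36, 8.35 and 8.36 in no-inhibitor replicates 1, 2 and 3 and 8.29, 8.30 and 8.30 in inhibitor replicates 1, 2 and 3. The groups did not overlap in this mean. Averaged over all genes tested, the signal was 7.537, 7.513 and 7.521 in no-inhibitor replicates 1, 2 and 3. In inhibitor replicates 1, 2 and 3 it was 7.514, 7.509 and 7.490, so that these groups overlapped, but only narrowly. Taken gene by gene, the groups did not overlap for 16 of the 34 members, 13 of them lower and 3 higher with inhibitors. Over all genes 55.4% did not overlap, 29.3% lower and 26.1% higher.

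Proteins at the central protuberance, the crest of the large subunit that faces the small subunit, were read by 5 members. MRPL36, the counterpart of bacterial L31, had signals of 9.44, 9.54 and 9.54 without inhibitors and 9.25, 9.19 and 9.26 with them. Every inhibitor array was below every array without inhibitors, and MRPL36 fell by 0.27 (SE 0.037, adjusted p = 0.00412 in limma). The other 4, MRPL7, MRPL17, MRPL28 and MRPL35, were not called. Of these 4, MRPL35 had the largest difference, at -0.11 (adjusted p = 0.0727 in limma). Its groups did not overlap, with 8.10, 8.12 and 8.03 without inhibitors and 7.97, 8.03 and 7.93 with them, although the nearest arrays of the groups were almost level. MRPL7, the counterpart of L5, had a log2 fold change of -0.05 and MRPL28 of -0.03, both with overlapping groups.

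At the exit of the peptide tunnel, where new chains meet the membrane insertion machinery, 5 members were measured. MRPL4, the counterpart of L29, had signals of 7.55, 7.52 and 7.45 without inhibitors and 7.30, 7.25 and 7.24 with them. The groups were clearly apart, and MRPL4 fell by 0.24 (SE 0.035, adjusted p = 0.0047 in limma). The other 4 were not called. MRPL40, the counterpart of L24, had a log2 fold change of -0.10 (limma adjusted p = 0.101), and MRPL13 and MRPL3, both without a bacterial counterpart, had -0.13 and -0.06. The counterpart of L22, which lines the tunnel, is MRPL22. It had signals of 8.46, 8.24 and 8.42 without inhibitors and 8.42, 8.51 and 8.47 with them, a log2 fold change of 0.09 (limma adjusted p = 0.287). Its groups overlapped, and no-inhibitor replicate 2 was the low array, without which the log2 fold change was 0.027.

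At the factor-binding stalk members were called in both directions, and at the L1 stalk the member was not called. MRPL11, the counterpart of L10, which anchors the factor-binding stalk, had signals of 8.10, 8.06 and 8.17 without inhibitors and 7.96, 7.94 and 8.01 with them. MRPL11 fell by 0.14 (SE 0.038, adjusted p = 0.0349 in limma), the call with the highest adjusted p of the 12. It was lost when the fit and the adjustment ran over all probe sets of the table (adjusted p = 0.103 in limma) and in 4 of the 6 fits that left out 1 replicate, with adjusted p from 0.0719 to 0.102 in these (0.0838 without no-inhibitor replicate 1, 0.0719 without no-inhibitor replicate 3, 0.0843 without inhibitor replicate 1 and 0.102 without inhibitor replicate 2). MRPL19, the counterpart of L11, sits at the base of the same stalk and went the other way. Its signals were 7.58, 7.60 and 7.63 without inhibitors and 7.72, 7.78 and 7.79 with them, so that every inhibitor array was the higher. MRPL19 rose by 0.16 (SE 0.028, adjusted p = 0.00806 in limma). For MRPL1, the counterpart of L1 at the opposite stalk, the log2 fold change was 0.04 (adjusted p = 0.689 in limma).

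The remaining rises were those of MRPL10 and MRPL24. MRPL10, the counterpart of L15, a core protein of the subunit, had signals of 8.72, 8.71 and 8.72 without inhibitors and 8.92, 8.90 and 8.91 with them. The replicates of MRPL10 were tighter than those of the other members that rose, and it rose by 0.19 (SE 0.017, adjusted p = 0.00114 in limma). MRPL24, the counterpart of L28, had 7.51, 7.49 and 7.56 without inhibitors and 7.67, 7.70 and 7.71 with them. It rose by 0.17 (SE 0.025, adjusted p = 0.00492 in limma), again with no overlap.

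Further falls came from members with a bacterial counterpart that lie in the body of the subunit. MRPL16, the counterpart of L16, which lies near the site where transfer RNA enters, had 9.03, 9.00 and 9.02 without inhibitors and 8.90, 8.84 and 8.81 with them. It fell by 0.17 (SE 0.029, adjusted p = 0.00806 in limma). MRPL33, the counterpart of L30, had 8.15, 8.19 and 8.22 without inhibitors and 8.08, 8.01 and 8.00 with them. MRPL38, the counterpart of L14 on the face towards the small subunit, had 9.29, 9.32 and 9.24 without inhibitors and 9.15, 9.08 and 9.15 with them. Both fell by 0.16 (SE 0.032 for each), with adjusted p of 0.0133 for MRPL33 and 0.0136 for MRPL38 in limma. In all 3 of these genes the groups lay apart.

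A further 3 falls were in proteins found in mitochondrial and not in bacterial ribosomes. MRPL51 had signals of 8.22, 8.07 and 8.20 without inhibitors and 7.90, 7.97 and 7.92 with them. It fell by 0.23 (SE 0.047, adjusted p = 0.013 in limma), and no-inhibitor replicate 2 lay closest to the inhibitor group. This call was lost when the fit and the adjustment ran over all probe sets of the table (adjusted p = 0.0518 in limma). MRPL37 had 8.33, 8.39 and 8.29 without inhibitors and 8.11, 8.07 and 8.13 with them, and it fell by 0.23 (SE 0.033, adjusted p = 0.00495 in limma). MRPL20 had 7.31, 7.33 and 7.26 without inhibitors and 7.06, 7.09 and 7.11 with them. It fell by 0.21 (SE 0.027, adjusted p = 0.00331 in limma), with the groups apart.

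**Figure D2:**
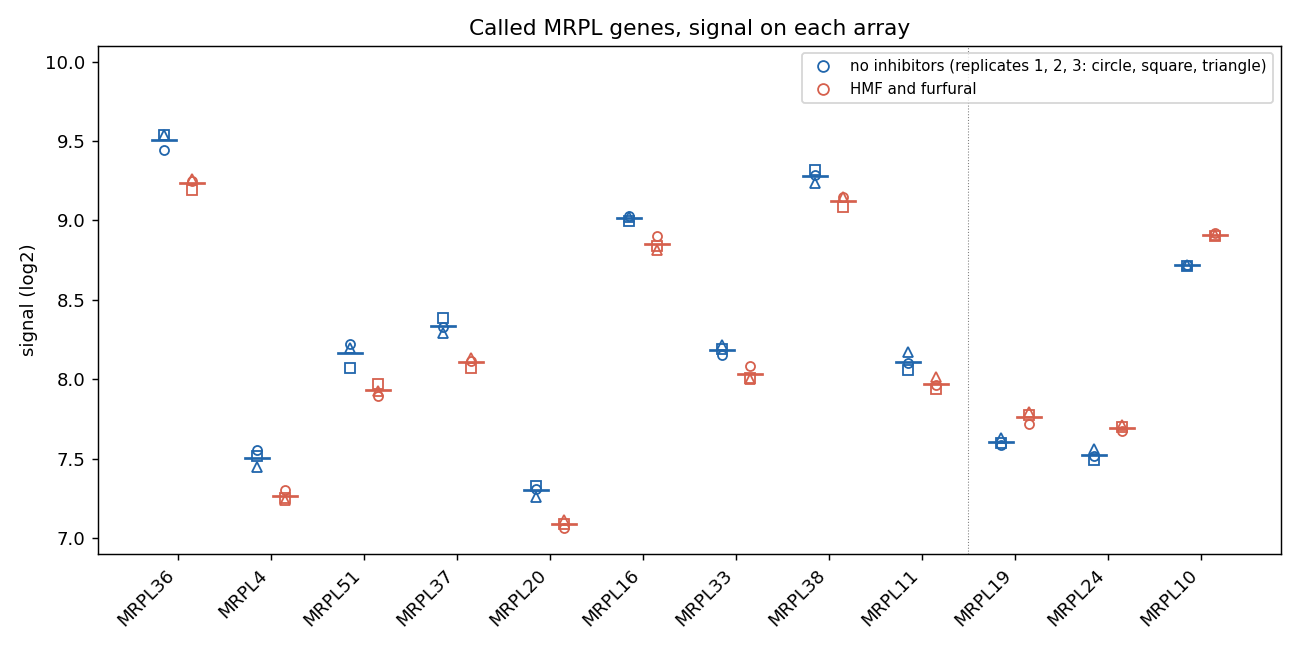
Log2 signal of the 12 called MRPL genes on each of the 6 arrays, blue without inhibitors and red with HMF and furfural. Circles, squares and triangles are replicates 1, 2 and 3, short lines are group means, and the dotted line parts the 9 genes that fell from the 3 that rose. In each gene the groups do not overlap, and the shift between them is at most 0.27.

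Split by descent, 6 of the 21 members with a bacterial counterpart fell and 3 rose, with a median log2 fold change of -0.05. That is 28.6% lower and 14.3% higher, beside 22.3% and 19.9% of all genes. Of the 13 without one, 3 fell and 0 rose in limma (0 higher also at an unadjusted p under 0.05), with a median of -0.06 and 23.1% called lower. Both shares of falls were near that of all genes. Whether these classes differ was not tested.

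Bounds on the 22 members not called were not all tighter than the called changes, which lay between folds of 1.10 and 1.21. For 20 of them, limma's 95% interval of the log2 fold change lay within a fold of 1.2 either way, the exceptions being MRPL13 and MRPL32. Some of these intervals still held a change as large as most of those called. MRPL31 had an interval from -0.26 to 0.02 and MRPL22 from -0.07 to 0.25. Others did not reach even the smallest called change, such as that of MRPL39, from -0.04 to 0.06. Of the 22, 14 had a negative and 8 a positive difference. For 4 of the 22 the groups did not overlap, each lower with inhibitors, namely MRPL35, MRPL40, MRPL49 and MRPL6. At an unadjusted p under 0.05, 16 of the 34 members passed, beside 2788 of 5449 genes.

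The closest agreement between the groups was in MRPL50, MRPL39 and MRPL23, the counterparts of L9, L33 and L13. MRPL39 had 8.96, 9.00 and 8.96 without inhibitors and 8.98, 8.99 and 8.98 with them, and the 95% interval of its log2 fold change ran from -0.04 to 0.06. MRPL50 had an interval from -0.06 to 0.07. MRPL23 had the highest mean signal of the members, with 9.50, 9.56 and 9.49 without inhibitors and 9.55, 9.52 and 9.52 with them, and an interval from -0.05 to 0.08. Signals of different probe sets are not on 1 scale, so this does not rank the transcripts.

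Single arrays set the spread of a few members. MRPL32, the counterpart of L32, whose precursor is processed by the m-AAA protease of the inner membrane, had 8.55, 8.63 and 8.23 without inhibitors and 8.52, 8.48 and 8.50 with them. No-inhibitor replicate 3 was low, the SD of that group was 0.21 where the inhibitor group had 0.018, and the interval of the log2 fold change ran from -0.24 to 0.29. MRPL25 had 7.41, 7.42 and 7.37 without inhibitors and 7.53, 7.39 and 7.55 with them, with inhibitor replicate 2 apart from its group. Its log2 fold change was 0.09 (adjusted p = 0.217 in limma) and reached 0.14 without that replicate (adjusted p = 0.0276 in limma). MRPL13 passed the threshold without no-inhibitor replicate 2 (log2 fold change -0.18, adjusted p = 0.0385 in limma) and MRPL40 without no-inhibitor replicate 1 (log2 fold change -0.14, adjusted p = 0.0464 in limma). MRPL44 had 8.27, 8.24 and 8.32 without inhibitors and 8.27, 8.34 and 8.34 with them, and its groups overlapped.

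The remaining large subunit proteins carry other names, and 11 of the 12 listed were measured. Of these 11, 7 fell and 1 rose, with a median log2 fold change of -0.13. The percentages called were 63.6% lower and 9.09% higher, beside 22.3% and 19.9% of all genes, and whether they differ from the MRPL genes was not tested. RTC6, the counterpart of L36, had signals of 8.37, 8.37 and 8.36 without inhibitors and 7.94, 7.91 and 7.90 with them. It fell by 0.45 (SE 0.019, adjusted p = 0.000333 in limma), further than any of the 34 MRPL genes. RML2, the counterpart of L2 at the peptide bond forming centre, fell by 0.24, MRP20, the counterpart of L23 at the tunnel exit, by 0.22, and IMG1, the counterpart of L19, by 0.21. MHR1, which also acts in mitochondrial DNA recombination, rose by 0.07 (adjusted p = 0.0446 in limma).

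In the small subunit, 11 of 33 measured genes fell and 0 rose in limma (1 higher at an unadjusted p under 0.05), with a median of -0.05. The share called lower was 33.3%, beside 22.3% of all genes, while 19.9% of all genes were called higher. In either direction 33.3% were called, beside 42.2% of all genes, and whether the shares differ was not tested. MRPS18 fell by 0.37, RSM27 by 0.27, MRPS12 by 0.26 and RSM19 by 0.22. EHD3 of this list, not called, was near the floor of the array, with means of 2.22 without inhibitors and 2.21 with them. For both subunits the median was negative and most genes were not called.

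As over all genes tested, most measured genes that work with the ribosome were not called. Of 9 mitochondrial translation factor genes 3 fell, 1 rose and 5 were not called, so 44.4% were called beside 42.2% of all genes. FMT1, not called, was near the floor of the array, with means of 2.69 without inhibitors and 2.67 with them. TUF1, the elongation factor that delivers transfer RNA, fell by 0.36, GUF1 by 0.16 and MEF2 by 0.13. The ribosome recycling factor gene RRF1 rose by 0.15. Of 12 assembly and RNA modification genes 3 fell, 1 rose and 8 were not called, or 33.3% called beside 42.2% of all genes. MRM1, a methyltransferase of the large ribosomal RNA, fell by 0.26, the RNA helicase gene MSS116 by 0.24 and MAM33 by 0.15, and PUS4, a transfer RNA pseudouridine synthase that acts in both compartments, rose by 0.39.

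Of 16 translational activator and membrane insertion genes 6 fell and 0 rose in limma (0 higher also at an unadjusted p under 0.05). That is 37.5% called lower, beside 22.3% of all genes, while 19.9% of all genes were called higher. In either direction 42.2% of all genes were called. PET122 of this list was near the floor of the array, at 2.25 on all 6 arrays. ATP22, needed to translate the ATP6 messenger, fell by 0.48, MBA1, a membrane receptor of the ribosome, by 0.21, MSS51, the activator of COX1, by 0.14 and AEP1 by 0.14. Of 14 mitochondrial aminoacyl-tRNA synthetase genes 6 fell and 0 rose in limma (0 higher also at an unadjusted p under 0.05). That is 42.9% called lower, beside 22.3% of all genes. MSK1 for lysine fell by 0.43, ISM1 for isoleucine by 0.22, MSF1 for phenylalanine by 0.20 and SLM5 for asparagine by 0.19. Among 7 genes of mitochondrial transcription and DNA maintenance 2 rose and 0 fell in limma (1 lower at an unadjusted p under 0.05). That is 28.6% called higher, beside 19.9% of all genes. Whether these lists differ from all genes was not tested. ABF2, which packs mitochondrial DNA, rose by 0.36, and RIM1, the single-strand binding protein, rose by 0.26.

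**Figure D3:**
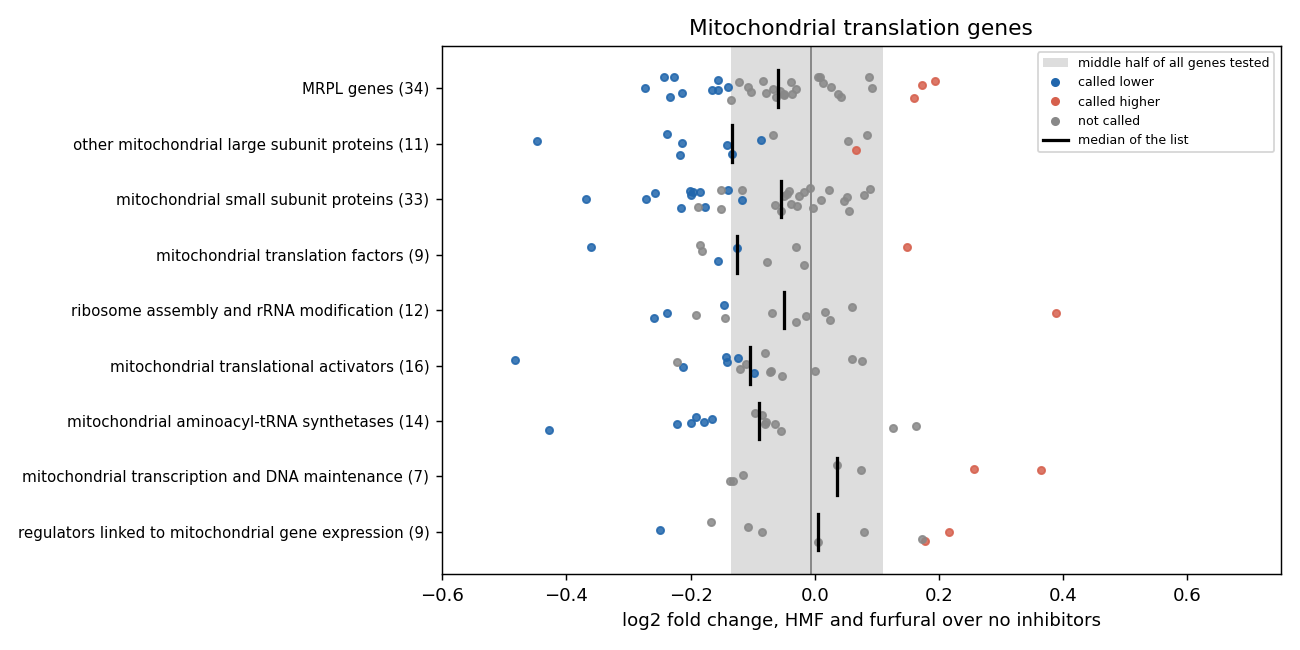
Log2 fold change of each gene in the mitochondrial lists, inhibitors over no inhibitors, with the number of genes measured in brackets. Blue points fell, red points rose and grey points were not called, black bars are list medians, the grey band is the interquartile range of all genes tested and the grey line their median. The MRPL median of -0.06 lies inside the band, and the median of the other large subunit proteins is -0.13.

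Regulators tied to these genes were also measured. Of 9 such genes 2 rose, 1 fell and 6 were not called, or 33.3% called, beside 42.2% of all genes. HAP4, the activating subunit of the complex that turns on respiratory genes, had signals of 8.78, 8.78 and 8.80 without inhibitors and 8.54, 8.58 and 8.50 with them. HAP4 fell by 0.25 (SE 0.028, adjusted p = 0.00221 in limma). HAP3, a DNA-binding subunit of the same complex, rose by 0.18, and IXR1, a regulator of hypoxic genes, rose by 0.22. HAP2 and HAP5, also subunits of that complex, had log2 fold changes of -0.17 and -0.11 and were not called (adjusted p = 0.105 and 0.110 in limma). PUF3, which binds messengers of mitochondrial proteins, was at 0.17 on the log2 fold change scale (limma adjusted p = 0.0945). The heme-responsive factor gene HAP1 and the ribosomal regulator gene SFP1 had 0.08 and -0.09 (adjusted p = 0.115 and 0.316 in limma). Any link between these regulators and the members was not tested.

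A last feature that the choice of members did not use is gene order. In the RefSeq gene order 17 members start head to head with another measured gene, so that both read away from 1 shared upstream region. Of these neighbours 5 rose, 3 fell and 9 were not called, or 47.1% called, beside 42.2% of all genes. Of the 5 called members with such a neighbour, the neighbour moved the same way in 1, the opposite way in 1 and was not called in 3. MRPL20 and the splicing helicase gene PRP16 both fell, PRP16 by 0.15 (adjusted p = 0.00788 in limma). MRPL11 fell while ACK1 rose by 0.25 (adjusted p = 0.00968 in limma). The widest gap was at MRPL15, with a log2 fold change of -0.06 (adjusted p = 0.334 in limma), whose neighbour ATG39, a receptor for autophagy of the nuclear envelope, fell by 0.75 (SE 0.067, adjusted p = 0.00118 in limma). These neighbours were chosen for naming after their values were seen.

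**Figure D4:**
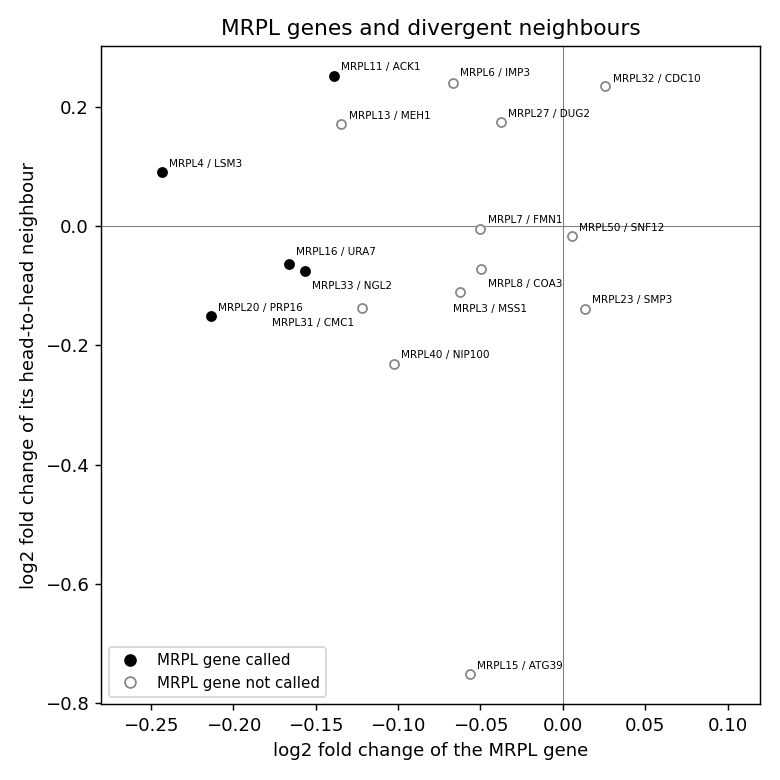
Log2 fold change of 17 MRPL genes (horizontal axis) against that of the gene that starts head to head with each (vertical axis), inhibitors over no inhibitors. Filled points are called MRPL genes and open points those not called. Apart from ATG39 at -0.75, the neighbours spread from -0.23 for NIP100 to 0.25 for ACK1, and these MRPL genes lie between -0.24 and 0.03. The 3 MRPL genes that rose are not among the 17.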

How the data were processed

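The deposited table holds log2 signals for 10762 probe sets on 6 arrays, and per the submitters' processing notes the authors used GCRMA and limma, in versions that no source at hand states. GCRMA subtracts a background modelled from each probe's bases and brings the arrays to a common scale, and the lowest value is 2.21. No further normalization was applied. The platform annotation paired 7244 probe sets with 1 gene, 1 with several and left 3517 unlisted. Of the 7244, 5498 were S. cerevisiae and 1746 fission yeast. Names came from the RefSeq table of assembly R64, used for names and gene order alone. For 47 genes with over 1 set, the set with the highest mean was used.

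The comparison used limma 3.58.1 (R 4.3.3) with group as the single factor, 3 arrays against 3, two-sided, adjusted over 5449 genes. The test was tested on simulated data. Array pairs correlated across genes at 0.998 to 0.999 within groups and 0.989 to 0.994 between groups. The labels call the replicates biological and do not say that they were separate cultures in separate vessels, so p-values measure the spread between these samples. The members, the gene lists and the tests were chosen with earlier results of these data known. Listed genes were matched by current symbol, and those with no match (MRP35, YMR31, TSF1 and the 12 listed genes of mitochondrial DNA) were not analysed here. Values per array were given for all called members whose groups did not overlap, for the 6 largest differences in each direction and for the 2 highest and 2 lowest mean signals, and up to 4 called genes of each list were named by size. MHR1 was named in addition, after its value was seen, as the single rise of its list. HAP1, HAP4, PUF3 and SFP1 were named whatever their values. HAP2 and HAP5 were named in addition, after their values were seen, as subunits of the complex of HAP4 and HAP3. Other members were named where a comparison turned on them. Alternatives covered normalization, a filter, moderation, array weights, the replicate number, probe sets, the threshold and leaving out replicates. No sequences were used here. Figures were drawn with matplotlib 3.10.9.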

Additional observations from a re-analysis of the deposited data

How the results depend on the processing

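Under 16 alternatives, 8 of the 12 called members kept their call, 4 lost it under at least 1 (MRPL11, MRPL33, MRPL38 and MRPL51), and 0 of the 12 changed sign. Among members not called, 3 gained a call when a replicate was left out (MRPL13, MRPL25 and MRPL40), and 3 lay on both sides of 0 (MRPL1, MRPL32 and MRPL50). Quantile normalization, median centring, the background filter, trended robust moderation, array weights, averaging probe sets and dropping cross-hybridizing sets each left 3 members higher and 9 lower. Averaging probe sets and dropping cross-hybridizing sets could not change a member's values, as each member had 1 set and 0 could cross-hybridize. The background filter kept all 34 members with unchanged values. These settings could move a member's call only through the moderation and the adjustment. At an adjusted p under 0.01, 3 were higher and 5 lower, as a stricter threshold must lower counts, and 1190 of all genes were called in place of 2300. Fitted and adjusted over all probe sets, 3 were higher and 7 lower, and 1455 genes were called, and the cause was not tested. Fits that each dropped 1 replicate gave 3 to 4 members higher, 8 to 10 lower and a median from -0.079 to -0.052. With the replicate number as a block (replicate block), 3 members were higher and 6 lower, and the median stayed at -0.06. The calls of MRPL33, MRPL38 and MRPL51 were lost there (adjusted p = 0.0668, 0.0661 and 0.0601 in limma), and 0 of the other 9 were. Same-numbered samples of the 2 groups had deviations from their group means that correlated at -0.22, -0.248 and -0.199. Differently numbered pairs correlated at 0.046 to 0.176. With 3 arrays a group these deviations constrain one another, so the correlations cannot tell whether the numbers pair the samples. The signal lay above background on all 6 arrays in all 34 members, as in 5346 of the 5449 genes tested.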
